A study of Mus musculus with 4 samples.

Results

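Capillary endothelial cells of the mouse heart were taken from 4 droplet libraries, 1 each of a control heart sample, a sham sample, a cecal ligation and puncture (CLP) sample and a CLP sample with low-level tragus stimulation. CLP is a surgical model of sepsis, and the tragus is the flap of the outer ear through whose skin vagal nerve fibres can be stimulated. The last sample has sepsis in its title label and stimulation alone in its treatment label. All 4 samples hold all cells of the heart. Strain, age, sex, how many animals a library pooled and when the hearts were taken are not stated in the sources used here. The members were chosen by measured UMI counts of marker genes. A barcode of at least 500 UMIs (counted RNA molecules) and 200 genes, with at most 20% mitochondrial UMIs, counted as a capillary cell if it also met the limits that follow. It had at least 1 UMI of Cdh5 or Pecam1, which mark endothelium, and at least 2 UMIs in all of Gpihbp1, Kdr and Rgcc, which mark capillaries. At most 1 of the 6 arterial genes Gja5, Gja4, Sema3g, Bmx, Hey1 and Stmn2 was detected, Prox1, Npr3 and Kcnj8 were at 0, and Vwf and Nr2f2 were not both detected. UMIs of Col1a2, Dcn and Col3a1, and those of C1qa, C1qb and C1qc, stayed under 20 per 10000. The rule found 6158 of 41542 barcodes that passed the quality limits.

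Capillary endothelium of the heart feeds a muscle that burns mainly fatty acids. Lipoprotein lipase is held at the capillary surface by Gpihbp1, frees fatty acids from circulating lipoproteins, and Cd36, Fabp4 and the transcription factors Meox2 and Tcf15 serve their passage through the cell. The same cells respond to VEGF through Kdr, form caveolae, sense interferons and endotoxin, and on activation show adhesion molecules to passing leukocytes. Interferon-stimulated genes are switched on by factors that bind an element built on repeats of GAAA, and metallothionein genes by a factor that binds metal response elements.

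Sequences before the start sites of 4 genes whose levels the results turn on are shown for these elements, from RefSeq on GRCm38.p6, 250 bases upstream of the annotated start and 5′ to 3′ on the strand of the gene. Capitals mark GAAA, any 2 bases and GAAA again, on either strand, in Ifit3 and Isg15, and TGCACNC or TGCGCNC, on either strand, in Mt1 and Mt2. Matches that overlapped were joined, which is the case for the 3 matches of Isg15.
Ifit3, chr19:34583279-34583528, plus strand: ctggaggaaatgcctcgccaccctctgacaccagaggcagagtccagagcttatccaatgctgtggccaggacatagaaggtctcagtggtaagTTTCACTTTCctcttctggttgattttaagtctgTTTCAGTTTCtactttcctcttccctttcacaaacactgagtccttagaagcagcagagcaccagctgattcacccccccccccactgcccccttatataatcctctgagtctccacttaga
Isg15, chr4:156200819-156201068, minus strand: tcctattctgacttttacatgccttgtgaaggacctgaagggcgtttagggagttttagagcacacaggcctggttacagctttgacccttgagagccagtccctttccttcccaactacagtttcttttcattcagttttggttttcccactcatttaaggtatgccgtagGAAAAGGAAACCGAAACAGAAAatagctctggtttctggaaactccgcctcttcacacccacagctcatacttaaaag
Mt1, chr8:94178839-94179088, plus strand: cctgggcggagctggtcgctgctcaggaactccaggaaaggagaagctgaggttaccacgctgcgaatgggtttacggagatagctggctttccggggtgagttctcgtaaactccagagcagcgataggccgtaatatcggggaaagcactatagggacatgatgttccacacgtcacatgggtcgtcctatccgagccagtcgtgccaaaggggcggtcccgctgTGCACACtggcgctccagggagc
Mt2, chr8:94172368-94172617, plus strand: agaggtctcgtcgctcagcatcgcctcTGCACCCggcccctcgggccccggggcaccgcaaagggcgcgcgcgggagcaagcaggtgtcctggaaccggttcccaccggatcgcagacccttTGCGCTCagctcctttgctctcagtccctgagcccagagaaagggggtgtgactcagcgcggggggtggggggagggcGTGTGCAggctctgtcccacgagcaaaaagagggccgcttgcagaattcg
A gene counted if any of its upstream windows of that length held a match. The GAAA pair was found in 16 of the 37 interferon response genes with a sequence (43.2%), against 3.46% of all 27025 genes. TGCACNC or TGCGCNC was found in 4 of 7 metal response genes (57.1%), against 23.8% of all genes. A match is a description of letters and not a site or a cause.

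Each library gave 1 value, so no difference has a replicate check, no p-value is given and cells are not replicates. Parentheses after a ratio or share hold its 95% interval, which takes in counting error alone. The libraries held 54611436 to 59465046 UMIs. The 2664, 1341, 1596 and 557 capillary cells of control, sham, CLP and CLP with stimulation held 7687396, 6335847, 7536075 and 4270478 UMIs, with medians of 2199.5, 3381, 3455.5 and 4377 per cell. At most 2 capillary barcodes of a library also occurred in another library. Levels are UMIs of a gene per 1000000 UMIs (CPM) of the cells summed, and ratios are log2 ratios of these.

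The label held for nearly all barcodes of 3 libraries and for 2 in 3 of the barcodes with stimulation, so this mixture comes before the results. Barcodes were sorted by whether they held more UMIs of 14 other endothelial genes, such as Tie1 and Egfl7, or of 8 leukocyte genes, among them Ptprc, Tyrobp and Coro1a. Leukocyte UMIs were at least as many in 61 barcodes of control (2.29%), 52 of sham (3.88%), 61 of CLP (3.82%) and 184 of CLP with stimulation (33.0%). Those 184 barcodes held 62.3% of the UMIs of the stimulated library's members, with a median of 10385 UMIs each. Rgcc alone met the capillary gate in 138 barcodes of that library, and 136 of these were among the 184. Cdh5 was at 0 in 30.2% of its members, against 7.16% to 10.2% elsewhere. The summed level of 14 macrophage markers was 758, 1067, 990.4 and 3449 CPM, and that of 15 neutrophil markers was 93.1, 1637, 16844 and 23432 CPM. In the 2603, 1289, 1535 and 373 barcodes with more endothelial UMIs, called endothelial-dominant cells from here on, macrophage markers were at 667, 643, 389.8 and 428 CPM. Neutrophil markers were at 51.7, 598, 1442 and 933 CPM there, and fibroblast and pericyte markers at 212 to 374 CPM. Of the 15 neutrophil markers 2, 1, 0 and 2 were at 0 in these cells. Cardiomyocyte markers, the most abundant of another cell type, were at 2957, 2681, 2203 and 1167 CPM, and erythroid markers at 1331, 285, 1298 and 123 CPM. The part of RNA from other cells in the differences below was not tested, other than by giving both sets of cells. This split was chosen after the data were seen, and the genes that make it are left out of list medians in endothelial-dominant cells. For comparisons with the stimulated library, counts are given for both sets of cells and single genes mostly for endothelial-dominant cells.

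**Figure D1:**
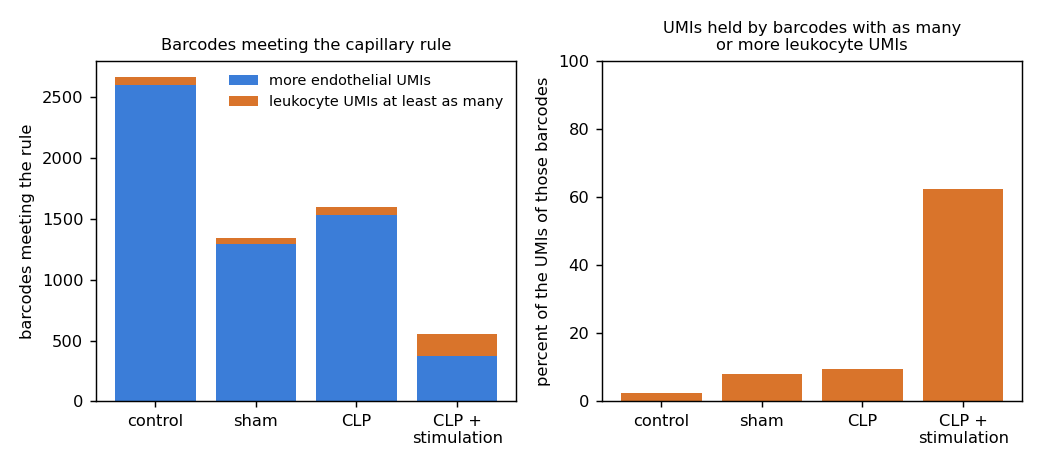
Left, the number of barcodes that met the capillary rule in each library, split into those with more endothelial than leukocyte UMIs (blue) and the others (orange). Right, the percent of the members' UMIs in the orange barcodes. The stimulated library stands apart, with 184 of 557 barcodes and 62.3% of the UMIs in orange.

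Capillary cells were 17.1% (16.5 to 17.7) of quality-passing barcodes in control, 15.0% (14.2 to 15.7) in sham, 19.2% (18.3 to 20.02) in CLP and 6.44% (5.93 to 6.98) in CLP with stimulation. The log2 ratio of the share was -0.19 (-0.29 to -0.10) for sham over control, 0.36 (0.25 to 0.46) for CLP over sham and -1.57 (-1.71 to -1.43) for CLP with stimulation over CLP. Of barcodes with a Cdh5 or Pecam1 UMI alone, capillary cells were 49.8%, 47.2%, 46.1% and 35.8%, and on this denominator the CLP over sham ratio had the other sign, at -0.04 (-0.14 to 0.07). The stimulated library was low on both denominators, and lowest when endothelial-dominant cells were counted, with a log2 ratio to CLP of -2.09 (-2.26 to -1.93). How a heart was taken apart into cells sets such shares too, and its part was not tested.

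The genes of the rule chose the cells, so their levels are a description. Kdr, the main VEGF receptor, was at 1024, 1126, 398 and 148 CPM in control, sham, CLP and CLP with stimulation. Gpihbp1, the capillary anchor of lipoprotein lipase, was at 1627, 1142, 2803 and 1165 CPM in the same order. Rgcc, a cell cycle regulator abundant in capillaries, was at 1347, 1092, 1719 and 1039.9 CPM, and the endothelial cadherin Cdh5 at 1195, 1333, 1027 and 545 CPM. In endothelial-dominant cells of the stimulated library the levels were 383, 2992, 2004 and 1394 CPM. Of the gate's 2 UMIs, 210, 93, 82 and 56 barcodes had exactly that number, and 204, 90, 114 and 96 barcodes had 1 and lay outside. In CLP, Cd36 was at 733 CPM just outside, 1322 CPM just inside and 4976 CPM in barcodes with 3 or more gate UMIs. In CLP with stimulation the same 3 levels were 100.1, 109 and 870.0 CPM, so barcodes at the edge of the gate there carried little of this capillary gene.

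Sham over control gives the difference between libraries that goes with the sham operation or with the library itself, which cannot be told apart. Among 12265 genes with at least 20 counts over both libraries, 412 (3.36%) were at least 2-fold higher in sham and 133 (1.08%) at least 2-fold lower. In endothelial-dominant cells the counts were 140 (1.17%) and 148 (1.23%) of 11986 genes. The cell cycle list had a median of 0.91 over 26 measured members in all members and -0.03 in endothelial-dominant cells. Cma1, a mast cell protease, was at 55.6 CPM in the sham members and 1.03 CPM in its endothelial-dominant cells, and the histone gene Hist1h2ap at 123 and 22.7 CPM.

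The capillary identity list differed little between the control and sham libraries, with 9 of 28 genes higher and 19 lower, 1 past 2-fold each way, and a median of -0.12 (-0.05 in endothelial-dominant cells). Single genes differed more, and the following had the most extreme ratios. Cyp26b1, which breaks down retinoic acid, was at 217 CPM in control against 26.99 CPM in sham, with a log2 ratio of -3.01 (-3.25 to -2.78). Tcf15, the fatty acid transport factor, was at 1191 and 477 CPM, with a ratio of -1.32 (-1.38 to -1.26). Thrsp, linked to lipid synthesis, Angptl4, an inhibitor of lipoprotein lipase, and the heat shock gene Hspa1b were also lower in sham, at -1.22, -1.34 and -1.02. Higher in sham were the endothelial transcription factor Sox18, at 153 and 323 CPM with a ratio of 1.08 (0.98 to 1.19), the clock-controlled factor Dbp, at 1.11 (0.92 to 1.31), and the chemokine receptor Cxcr4, at 1.04 (0.78 to 1.30). Interferon response genes were higher in sham than in control in 42 of 48 members (median 0.21), beside 57.2% of all genes in the same cells. In endothelial-dominant cells 46 of 48 were higher in sham (median 0.28). MHC class I presentation genes were higher in sham in 18 of 21 members (median 0.44), and immediate early genes were lower in 17 of 22 (median -0.38), where the median of all genes was 0.05. These are the sizes that 2 libraries without sepsis differed by.

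The comparison of CLP with sham sets sepsis against a sham operation, and sepsis cannot be told apart from the library itself. Interferon response, MHC class I presentation and glucocorticoid-responsive genes were higher in CLP in 48 of 48, 19 of 21 and 25 of 27 measured members, the lipoprotein lipase gene was higher than in any other library, and receptors of apelin, netrin and semaphorin signals were lower. Of 12309 genes, 656 (5.33%) were at least 2-fold higher and 935 (7.6%) at least 2-fold lower. Endothelial-dominant cells gave 562 (4.74%) higher and 826 (6.96%) lower of 11860. The median of all genes was -0.15 in all members, where 36.6% of all genes were higher in CLP. The balance turned with the scaling, to 822 higher and 689 lower with TMM factors and to 827 and 683 when centred on the median of all genes. Levels of the stimulated library given in this comparison are those of all its members, leukocyte-rich barcodes included, and its endothelial-dominant levels follow in the comparison of stimulation.

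Genes that bring fatty acids to the heart were higher for the most part. Lpl (chr8:68880491-68907448, GRCm38, GENCODE vM21, plus strand), which encodes lipoprotein lipase, was at 387, 483, 3709 and 1118 CPM in control, sham, CLP and CLP with stimulation, a log2 ratio of CLP over sham of 2.94 (2.89 to 2.99). The CLP library was high and both libraries without sepsis were low and close to each other. In endothelial-dominant cells thinned to 1000 UMIs each, 38.8% of sham cells (70.3% before thinning) and 92.8% of CLP cells (96.7%) held an Lpl UMI, against 19.8% and 18.2% of barcodes without Cdh5 or Pecam1. Cd36, the fatty acid receptor, was at 2511, 2553, 4881 and 813 CPM, with a CLP over sham ratio of 0.93 (0.91 to 0.96). Ucp2, a carrier of the inner mitochondrial membrane, was at 147 CPM in sham and 643 in CLP, and the lipases Pnpla2 and Lipe had ratios of 1.57 and 1.16. Angptl4, the lipoprotein lipase inhibitor, was at 86.6, 34.1, 124 and 17.1 CPM, higher in CLP than in sham by 1.87 and than in control by less. The fatty acid binding protein Fabp5 and the acyl-CoA synthetase Acsl1 were lower, at -0.98 and -1.03. Of 27 measured genes of the fatty acid list, 20 were higher and 7 lower, 7 and 1 past 2-fold, with a median of 0.32.

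All 48 interferon response genes were higher in CLP than in sham, 21 of them past 2-fold, with a median of 0.89 (0.92 in endothelial-dominant cells, 20 past 2-fold). Irf7, the transcription factor that amplifies interferon production, was at 94.2, 98.8, 506 and 155 CPM, with a CLP over sham ratio of 2.36 (2.23 to 2.48). Ifit3, which binds foreign RNA complexes and holds 2 of the marked elements printed above, was at 56.1, 61.7, 252 and 62.99 CPM, with a ratio of 2.03 (1.87 to 2.19). The ubiquitin-like Isg15 was at 236, 258, 616 and 236 CPM, with 1.25 (1.17 to 1.33). CLP was the highest library for all 3 genes, and sham and control lay within 0.14 of each other for these 3, beside the list's median of 0.21 for sham over control. Guanylate-binding genes of the interferon gamma response went the same way, Gbp6 at 1.93, Gbp2 at 1.62 and the related GTPase Igtp at 1.73. The smallest ratios were those of Ddx60, Sp100 and Bst2, at 0.09, 0.20 and 0.23. In CLP, 45 of the 48 genes were found in a larger share of endothelial-dominant cells than of barcodes without Cdh5 or Pecam1.

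MHC class I presentation, which displays peptides to T cells, was higher in 19 of 21 members, 7 past 2-fold, with a median of 0.77. The peptide transporter gene Tap1 was at 44.7, 64.9, 170.2 and 108 CPM, with a ratio of 1.39 (1.23 to 1.56), and the class I gene H2-T23 at 151, 250.5, 542 and 164 CPM. B2m, the light chain of class I molecules, was at 1008, 1621, 2716 and 1339 CPM and so was higher in sham than in control and higher again in CLP. The H2-Q6 and H2-Q7 genes are near-identical, and how their reads were split is uncertain. MHC class II genes had a median of -2.09 over 7 measured members and of -3.17 in endothelial-dominant cells. In sham, none of the 8 listed class II genes was in a larger share of endothelial-dominant cells than of barcodes without Cdh5 or Pecam1. Whether their UMIs came from the capillary cells themselves was not tested.

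Glucocorticoid-responsive genes were higher in 25 of 27 measured members, 15 past 2-fold, with a median of 1.31. Fkbp5, which restrains the glucocorticoid receptor, was at 5.72, 8.21, 111 and 130.4 CPM, with a CLP over sham ratio of 3.74 (3.35 to 4.18). Zbtb16, a zinc finger factor induced by glucocorticoids, was at 1.30, 3.16, 65.8 and 27.2 CPM, and Fam107a, an actin-binding protein induced likewise, at 1.30, 1.74, 85.3 and 12.6 CPM. Both were under 4 CPM without sepsis. Cdkn1a, the cyclin-dependent kinase inhibitor p21, was at 275, 135, 1196 and 1491 CPM, with a ratio of 3.14 (3.04 to 3.24), and 69.3% of thinned CLP cells (91.8% before thinning) held a UMI, against 37.9% of barcodes without Cdh5 or Pecam1. The stress-regulated mTOR inhibitor Ddit4 and the sulfotransferase Sult1a1 had ratios of 2.49 and 2.17. The receptor gene itself, Nr3c1, was lower, at -0.72 (-0.86 to -0.59).

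Vcam1 and Icam1, the adhesion molecules that hold leukocytes, were higher in a list that went both ways. Of its 25 measured genes 16 were higher, 7 past 2-fold, and 9 lower, 1 past 2-fold, with a median of 0.16. Vcam1 was at 21.3, 19.6, 199.6 and 47.1 CPM, with a ratio of 3.34 (3.09 to 3.63), and Icam1 at 153, 109, 574 and 421 CPM, with 2.40 (2.28 to 2.52). Vcam1 was highest in CLP. Icam1 was highest in CLP in all members and with stimulation in endothelial-dominant cells, at 621 and 877 CPM, and was lower in sham than in control. Sele and Selp, the endothelial selectins, stayed under 10 CPM in CLP, at 8.76 and 7.17. Jam3, Podxl and Cd34, surface proteins of resting endothelium, were lower, at -1.64, -0.76 and -0.56. Among chemokine and cytokine genes 17 of 21 were higher, 10 past 2-fold, with a median of 0.85. Csf1, the macrophage growth factor, was at 43.7, 42.3, 173 and 94.6 CPM, with 2.03 (1.84 to 2.23), and was found in 13.8% of thinned CLP cells (31.9% before thinning) against 6.16% of barcodes without Cdh5 or Pecam1. Ccl2, Cxcl1 and Cxcl2 were found in smaller shares of the capillary cells than of those barcodes. The source of their UMIs was not tested.

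The acute phase list had a median of 1.64, with 21 of 23 measured genes higher and 15 past 2-fold, yet 22 of the 28 listed genes were found in no larger a share of the CLP cells than of barcodes without Cdh5 or Pecam1. Saa3, serum amyloid A3, was found in 76.6% of thinned endothelial-dominant CLP cells (99.2% before thinning), against 80.1%, and Lcn2, the siderophore-binding lipocalin, in 26.9% (55.6%), against 44.8%. Such shares cannot tell RNA made in capillary cells from RNA of other cells, and the source of these UMIs was not tested. Lrg1, a glycoprotein of inflamed vessels, was found in 7.88% (22.5%), against 6.76%, at 6.50, 14.4, 141 and 219 CPM. Serpina3g, a protease inhibitor, was found in 3.38% (12.1%), against 0.761%, and had a ratio of 4.06 (3.45 to 4.82). The heat shock list had a median of 0.40, and Hspa1a and Hspa1b, near-identical chaperone genes, had ratios of 2.99 and 3.05 at shares of cells under those of barcodes without Cdh5 or Pecam1.

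In the VEGF, angiopoietin and apelin list 25 of 35 measured genes were lower in CLP, 8 past 2-fold, and 10 higher, 2 past 2-fold, with a median of -0.36. Of all genes 36.6% were higher, so most genes outside the list were lower too. Aplnr, the apelin receptor, was at 243, 348, 37.95 and 1.40 CPM, with a CLP over sham ratio of -3.20 (-3.38 to -3.02). Its ligand gene Apln, a gene of sprouting capillaries, was at 42.4, 38.98, 2.65 and 1.40 CPM, with -3.84 (-4.61 to -3.22). Plxnd1, the plexin that takes up repulsive semaphorin signals, was at 346, 413, 102 and 31.1 CPM, the netrin receptor gene Unc5b at 54.4, 72.1, 14.5 and 3.51 CPM, and the VEGF and semaphorin co-receptor gene Nrp2 at 360.2, 384, 183 and 68.1 CPM. Both libraries without sepsis were high for all 5 genes and both CLP libraries were low. Esm1 and Angpt2, which endothelial tip cells express, had ratios of -2.75 and -2.71. Flt1, the VEGF decoy receptor, was higher, at 0.23 (0.18 to 0.29). Ccnd1, cyclin D1 of the G1 phase, was at 385, 419.7, 127 and 18.3 CPM.

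Clock genes went both ways, with 6 of 16 higher and 10 lower. Dbp was at 43.8, 94.9, 6.77 and 2.34 CPM, with a ratio of -3.80 (-4.25 to -3.40), and Tef, Per3 and Nr1d1, repressors and output factors of the same loop, had -1.96, -1.78 and -2.07. Arntl, the activator that drives them, was higher, at 1.37 (0.94 to 1.83), as were Per2 and Nfil3, at 1.27 and 1.74. The hour of sampling is not stated, and sepsis and time of day cannot be told apart here.

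Genes of capillary identity went both ways, with 13 of 28 higher, 5 past 2-fold, 15 lower, 5 past 2-fold, and a median of -0.05. Under both other scalings the capillary identity and caveolae medians were above 0. Timp4, a metalloproteinase inhibitor made by heart capillaries, was at 459, 334, 1383 and 173 CPM, with 2.05 (1.98 to 2.12). Ly6c1, a surface protein of capillaries, was at 1806, 1388, 4344 and 779.8 CPM and the membrane carbonic anhydrase Car4 at 292, 258, 568 and 192 CPM, both highest in CLP. In endothelial-dominant cells of the stimulated library they were at 1987 and 496 CPM, above the 1500.1 and 279 CPM of sham. Cavin2, a coat protein of caveolae, was at 1339, 1665, 677 and 51.8 CPM, with -1.30 (-1.35 to -1.25), and the tetraspanin Tspan13 at 739, 861, 385 and 64.4 CPM. The matrix proteoglycan gene Spock2 was at 2.47, 3.63, 110.3 and 10.1 CPM, and Ace, which makes angiotensin II, at 11.2, 8.84, 63.7 and 11.5 CPM, though Ace was found in 5.49% of thinned CLP cells (20.5% before thinning) against 7.33% of barcodes without Cdh5 or Pecam1. Tmem252 was at 3.64, 4.10, 93.02 and 256 CPM and Srarp at 9.24, 5.52, 59.4 and 1.64 CPM. The other genes with the lowest ratios were Tnfrsf21, a death receptor, at -3.05, Nrep at -2.48, the kinase gene Chek2 of DNA damage control at -2.29, Mmd at -2.28, the mitochondrial translation factor gene Tsfm at -2.25 and Samd5 at -2.14. Ifitm6 and Slfn4 had ratios of 4.47 and 4.39 in all members, at 92.8 and 74.6 CPM in CLP, and 4.54 and 9.96 CPM in its endothelial-dominant cells. Of the remaining lists, junction genes had a median of -0.25, caveolae -0.14, basement membrane -0.23, coagulation 0.23, vasoactive genes 0.02, hypoxia and glycolysis 0.34, cell death 0.34 and immediate early genes 0.25. The cell cycle list was at -0.84 in all members and at -0.05 in endothelial-dominant cells.

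**Figure D2:**
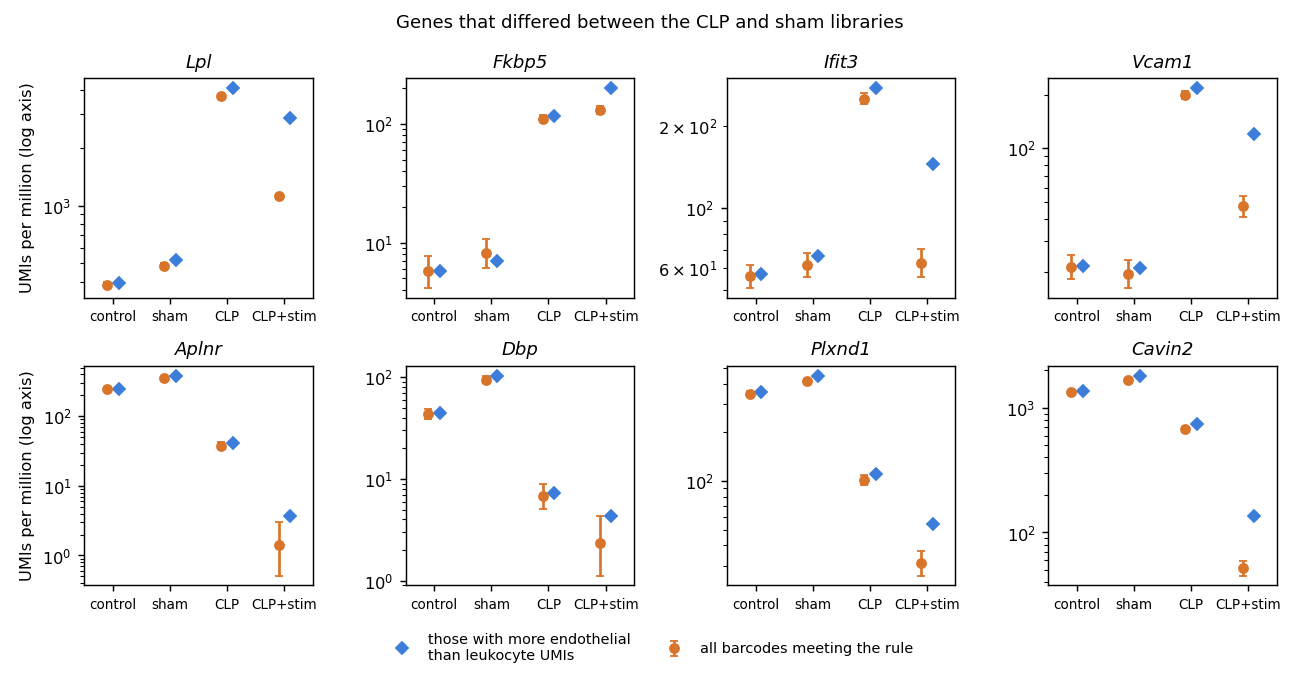
Level of 8 genes in the 4 libraries, as UMIs per 1000000 UMIs on a log axis. Orange points are all barcodes that met the rule, with 95% counting intervals, and blue diamonds are endothelial-dominant cells. Lpl, Fkbp5, Ifit3 and Vcam1 are high in CLP, with Lpl at 3709 CPM against 483 in sham, and Aplnr, Dbp, Plxnd1 and Cavin2 are low in both CLP libraries.

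**Figure D3:**
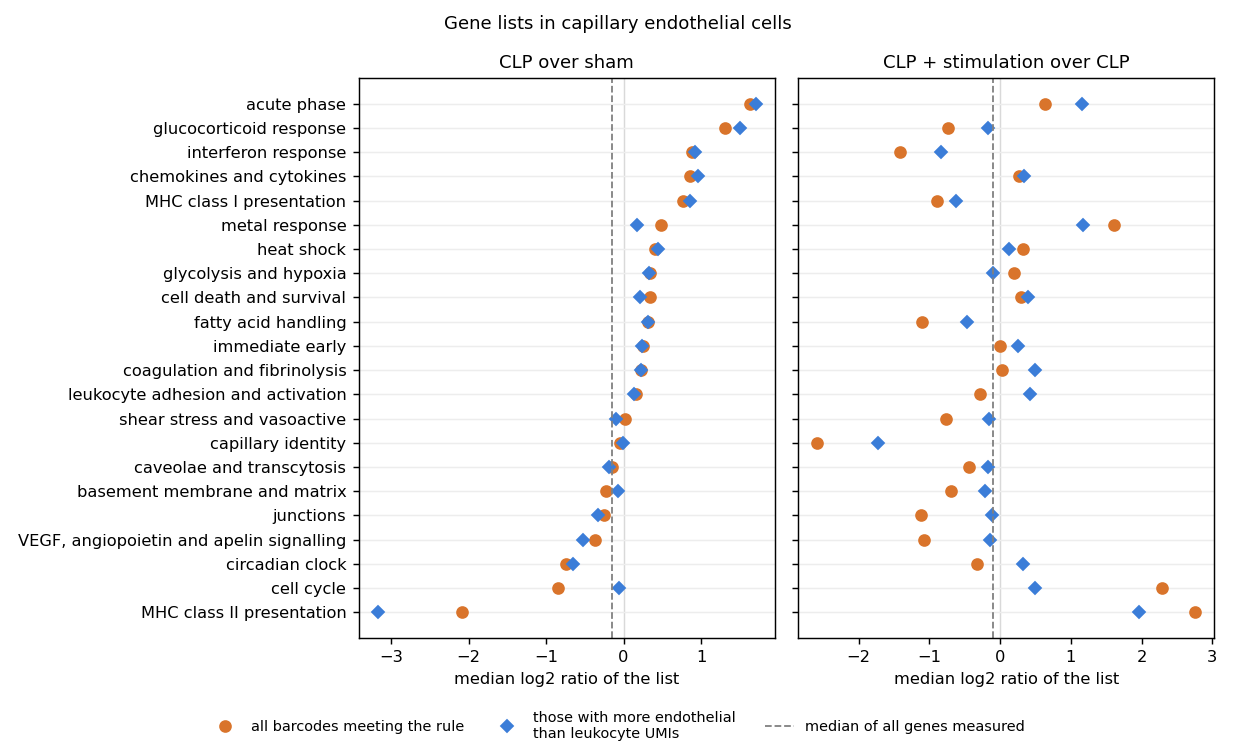
Median log2 ratio of each gene list for CLP over sham (left) and CLP with stimulation over CLP (right), in all members (orange) and endothelial-dominant cells (blue), with the median of all genes as a dashed line. On the left both sets of cells give like medians for most lists, with MHC class II and cell cycle genes apart, and on the right they differ for many, capillary identity at -2.58 and -1.72.

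The comparison of CLP with stimulation with CLP alone sets stimulation in sepsis against sepsis, and stimulation cannot be told apart from the library itself. The metallothionein genes Mt1 and Mt2 and the activin subunit gene Inhbb were higher in the stimulated library, and most of the capillary identity list was lower, in all members and in endothelial-dominant cells alike. Of 11974 genes, 1931 (16.1%) were at least 2-fold higher and 2657 (22.2%) at least 2-fold lower. In endothelial-dominant cells 1046 (9.49%) were higher and 2100 (19.1%) lower of 11023. The median log2 ratio of all genes was -0.10 in all members, where 46.0% of genes were higher, and -0.11 in endothelial-dominant cells. List counts and medians below are to be read beside these values. The 10 highest genes of all members held 5, Ctsg, Mpo, Elane, Prtn3 and Phgdh, that were at 53.4 to 215 CPM there and under 2 CPM in endothelial-dominant cells. The first 4 of these encode granule proteins of neutrophil precursors. Cfd, Orm1 and Spp1 rested on few cells, with 77.7% and 83.1% of the UMIs of Cfd and Orm1, and 11 of the 20 UMIs of Spp1, in 1 endothelial-dominant cell each. Ratios below are those of endothelial-dominant cells unless all members are named, and the 4 levels are in the order control, sham, CLP and CLP with stimulation.

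Metallothioneins, small proteins that bind zinc and copper, led by level. Mt1 was at 146, 133, 517 and 12735 CPM in endothelial-dominant cells, a log2 ratio of stimulated CLP over CLP of 4.62 (4.57 to 4.67), and Mt2 at 19.8, 15.6, 143 and 4270.3 CPM, with 4.90 (4.81 to 5.001). In all members the ratios were 3.46 and 3.70. Mt1 was found in 34.4% of thinned CLP cells (69.9% before thinning) against 83.2% of barcodes without Cdh5 or Pecam1, and in 97.6% (99.7%) against 90.7% with stimulation. The level in those other barcodes was 5324 CPM in CLP and 12771 CPM with stimulation. Capillary cells were thus below them in CLP and level with them with stimulation. The source of the Mt1 UMIs of capillary cells in CLP was not tested. Saa3, for scale, was at 2881 CPM in capillary cells and 30624 CPM in the others of the stimulated library. The zinc importer gene Slc39a14 was at 10.3, 18.03, 64.9 and 189.9 CPM. The metal list had 8 of 10 genes higher, 5 past 2-fold, with a median of 1.17.

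Inhbb (chr1:119415465-119422248, minus strand), which encodes the activin beta B subunit, was at 1.74, 0.343, 7.47 and 479 CPM, with a ratio of 5.99 (5.59 to 6.44), and was found in 0.774% of thinned CLP cells (2.74% before thinning) and 37.5% of stimulated cells (67.02%), against 1.12% and 1.35% of barcodes without Cdh5 or Pecam1. Plaur, the urokinase receptor, was at 14.03, 16.1, 40.3 and 774 CPM, with 4.26 (4.07 to 4.46), and Tmem252 at 3.74, 4.47, 102 and 653 CPM, with 2.67 (2.53 to 2.81). Ackr3, a scavenger receptor for the chemokine Cxcl12, was at 72.3, 73.5, 67.99 and 462 CPM, with 2.76 (2.59 to 2.93), while Cxcl12 itself was at 1951, 1282, 1193 and 301 CPM, with -1.99 (-2.12 to -1.86). Stimulated CLP was the high library for the first 4 of these and the low one for Cxcl12. Pgf, a VEGF family ligand, was at 15.6, 11.7, 28.9 and 237 CPM, the semaphorin gene Sema3f at 34.1, 41.04, 78.5 and 336 CPM, and Smad6, which restrains BMP signals, at 13.5, 13.4, 36.9 and 117 CPM. The endothelin receptor gene Ednrb was at 89.4, 105, 82.2 and 387 CPM, Entpd1, which breaks down extracellular ATP, at 39.3, 32.5, 129.7 and 488 CPM, and the matrix protease gene Adamts9 at 154, 139, 146 and 550.4 CPM. Entpd1 and Smad6 were already higher in CLP than in sham, at 1.995 and 1.46, and higher again with stimulation. Inhbb, Tmem252, Plaur, Pgf, Sema3f, Smad6 and Cxcl12 met the naming rules given below in a CLP comparison of all members. Ackr3, Ednrb, Entpd1 and Adamts9 were picked singly with their values known. Of all genes 9.49% passed 2-fold higher, and the genes named here stand for no group.

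**Figure D4:**
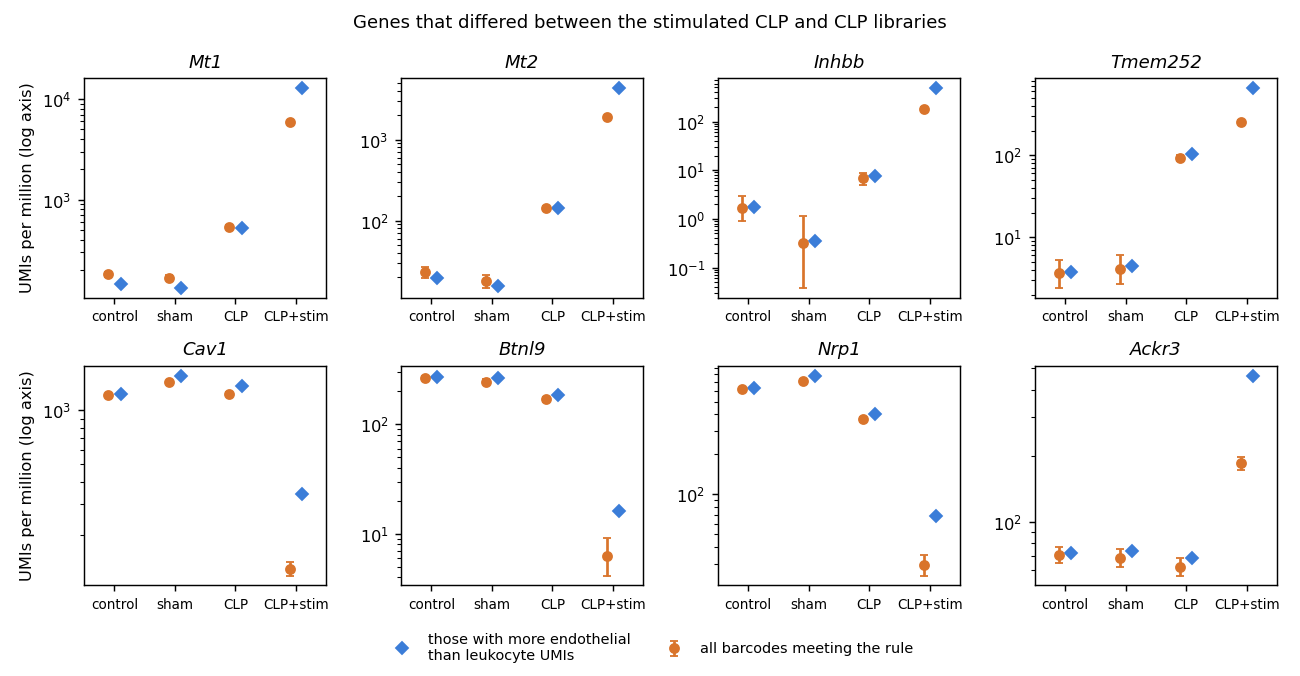
Level of 8 genes in the 4 libraries, as UMIs per 1000000 UMIs on a log axis, with symbols as in the other plot of levels. Mt1, Mt2, Inhbb, Tmem252 and Ackr3 are highest with stimulation, and Cav1, Btnl9 and Nrp1 are lowest there, in all members and in endothelial-dominant cells.

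Inflammatory genes were mixed. The acute phase list had 21 of 27 genes higher, 17 past 2-fold, with a median of 1.16, against 0.64 in all members. Lcn2 was at 3.74, 8.93, 536 and 5905 CPM, with 3.46 (3.41 to 3.52), and was found in 77.5% of thinned stimulated cells (91.96% before thinning) against 64.7% of barcodes without Cdh5 or Pecam1. Only 7 of the 28 listed acute phase genes were found in a larger share of capillary cells than of those barcodes, Lcn2 among them. Hp, haptoglobin, had 66.3% of its UMIs in 1 cell of 38 that held any. Of the UMIs of C4b and C3, 70% and 53.5% lay in 1 cell each. The count of 17 genes past 2-fold thus rests in part on single cells. Nfkbia, the inhibitor induced by NF-kappaB, was at 541, 436, 1700.5 and 4653 CPM and Cdkn1a at 269.8, 132, 1278 and 3037 CPM, both higher in CLP than in sham and higher again with stimulation. Icam1 was at 155, 109, 621 and 877 CPM and the selectin gene Selp at 2.27, 0.687, 7.18 and 40.95 CPM, and the adhesion list had 14 of 23 genes higher, 8 past 2-fold, with a median of 0.42, against -0.29 in all members. Cxcl1 was at 101, 79.5, 218 and 806 CPM and was found in 31.8% of thinned stimulated cells (50.4%) against 26.01%. Ccl2, Cxcl2, Il6 and Csf3 were found in smaller shares than in barcodes without Cdh5 or Pecam1, and of the Csf3 UMIs 23.6% lay in 1 of 36 cells.

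Interferon response genes were lower with stimulation than in CLP in 42 of 48 members, 19 past 2-fold, with a median of -0.83 (-1.41 in all members, 46 of 48 lower). Ifit3 was at 57.2, 66.6, 276 and 145 CPM, with -0.92 (-1.13 to -0.73), and Irf7 at 95.1, 104, 544 and 269 CPM, with -1.01 (-1.16 to -0.87). Both stayed above their sham levels. Oas2, a sensor of viral RNA, was at 18.03, 25.6, 55.7 and 6.21 CPM and Ifi44 at 45.01, 72.8, 138 and 28.5 CPM, below sham. Ifitm3, which blocks virus entry, was higher, at 2579, 2613, 5739 and 7565 CPM, and Gbp5 likewise, at 30.9, 53.8, 143 and 200.4 CPM. MHC class I presentation was lower in 17 of 21 members, with a median of -0.63. The immunoproteasome gene Psmb9 was at 163, 188, 317 and 79.4 CPM, while the class I heavy chain gene H2-D1 was at 1288, 1759, 2608 and 2499 CPM, with -0.06 (-0.11 to -0.01). The MHC class II median was 1.96, at shares of cells under those of barcodes without Cdh5 or Pecam1 for all 8 genes.

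The capillary identity list was lower with stimulation. None of 28 list members was higher in all members, 23 were past 2-fold lower and the median was -2.58. In endothelial-dominant cells, leaving out the 3 genes that helped choose them, 21 of 25 were lower, 17 past 2-fold, with a median of -1.72. The list did not set capillary from arterial cells in every library. Its summed level in arterial cells was 39404, 41029, 59291 and 22443 CPM. In all capillary members it was 54436, 42765, 51736 and 13417 CPM, and in endothelial-dominant cells 55664, 46231, 56876 and 33996 CPM. The summed level of 12 venous endothelial markers in endothelial-dominant cells was 361, 324, 824 and 1406 CPM, and thinned cells with none of their UMIs were 75.2%, 75.4%, 53.0% and 41.4%. Most of the stimulated sum lay in Tmem252, Lrg1 and Vcam1. Tmem252 was at 3.74, 4.47, 102 and 653 CPM. Lrg1 was at 6.55, 7.38, 110.3 and 338 CPM and Vcam1 at 21.5, 21.1, 218 and 119.8 CPM. Lrg1 is also a gene of inflamed vessels and Vcam1 an adhesion gene, so the sum does not measure venous identity alone. Another of the markers, Bgn, was found in 6.76%, 7.76%, 9.38% and 4.56% of unthinned cells. Ackr1 was under 1 CPM in each library, and Vwf at 13.6, 10.1, 13.6 and 10.5 CPM and Nr2f2 at 28.3, 23.2, 37.95 and 36.6 CPM, which the rule kept from occurring together. The part of venous marker genes in the lower capillary levels was not tested. Aqp7, a glycerol channel, was at 194, 189, 94.9 and 1.24 CPM, with -5.94 (-9.31 to -4.40), and C1qtnf9, an adiponectin relative, at 539.6, 562, 499.5 and 27.3 CPM, with -4.18 (-4.66 to -3.77). Btnl9 was at 269, 264, 185 and 16.1 CPM, with -3.49 (-4.14 to -2.96). The stimulated library was below the other 3 for all of these. Cd36 was at 2566, 2755, 5368 and 2075 CPM and Fabp4 at 32989.8, 25056, 29601 and 19795 CPM. The water channel gene Aqp1, the VEGF decoy receptor gene Flt1 and the transcriptional regulator genes Id1 and Id3 were not lower past 0.1, at 0.10 (0.05 to 0.16), 0.37 (0.30 to 0.44), 0.28 (0.20 to 0.36) and -0.02 (-0.10 to 0.05). Lpl was at 395, 523, 4076 and 2859 CPM and so kept most of its CLP level, with -0.51 (-0.56 to -0.47), and Ucp2 at 129, 131, 676 and 1138 CPM. Thrsp was at 216, 98.6, 569 and 39.1 CPM and Angptl4 at 88.2, 37.1, 137 and 40.95 CPM, both highest in CLP, and with stimulation Thrsp was below and Angptl4 near its sham level. The fatty acid list had 21 of 25 genes lower, 8 past 2-fold, with a median of -0.47, and Hilpda, a lipid droplet protein, was higher, at 29.4, 26.6, 36.3 and 109 CPM.

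Coat genes of caveolae, the surface pits of capillaries, were lower. Cav1, the main caveolin, was at 1239.5, 1554, 1366 and 341 CPM, with -1.9996 (-2.13 to -1.88), and Cav2 at 471, 668, 437 and 143 CPM. Cavin1 was at 764, 896, 542 and 144 CPM, Cavin2 at 1371, 1799, 743 and 135 CPM and Cavin3 at 278, 234, 389 and 150.2 CPM. Ehd2, an ATPase at the neck of caveolae, was at 452, 516, 394 and 107 CPM, and Fcgrt, the receptor that recycles antibodies, at 138, 132, 125 and 26.7 CPM. In all these 7 genes the stimulated library was the lowest of the 4. Clathrin pathway genes in the same list were not, Cltc being at 159, 157, 121 and 186 CPM and Tfrc at 14.03, 6.53, 10.8 and 27.3 CPM, and the list median was -0.17, with 7 genes past 2-fold lower and 3 higher of 17.

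Growth signalling and junction genes depended on which cells were counted. The VEGF, angiopoietin and apelin median was -1.08 in all members and -0.15 in endothelial-dominant cells, where 13 genes were higher and 16 lower. Nrp1, the VEGF and semaphorin co-receptor, was at 631, 777, 402 and 68.3 CPM, with -2.55 (-2.85 to -2.28), Aplnr at 248, 377, 41.8 and 3.72 CPM and the BMP receptor gene Acvrl1 at 110.1, 109.9, 161 and 37.2 CPM. The junction median was -1.12 in all members and -0.11 over 18 genes in endothelial-dominant cells. Pard3, a polarity protein, was at 7.48, 8.07, 15.8 and 79.4 CPM there and Jup, a junction plaque protein, at 361, 290.4, 187 and 91.2 CPM. Thbd, the receptor that turns thrombin against clotting, was at 126, 179, 161 and 47.8 CPM, and the coagulation median was 0.50. Basement membrane genes had a median of -0.21, with the type IV collagen gene Col4a1 at 1479, 1910.0, 1622 and 2339.9 CPM and the proteoglycan gene Agrn at 73.5, 96.7, 124 and 21.7 CPM. The flow-responsive factor Klf2 was at 1554, 1263, 2300.3 and 2280.3 CPM, with -0.01 (-0.06 to 0.04), and the vasoactive list had a median of -0.15. Glucocorticoid-responsive genes had a median of -0.17, with Fkbp5 at 5.74, 7.04, 117 and 199 CPM, Tsc22d3, a leucine zipper protein induced by glucocorticoids, at 112, 129, 354 and 137 CPM and Sult1a1 at 159, 138, 631 and 139.6 CPM. Tsc22d3 was found in 14.4% of thinned stimulated cells (34.9% before thinning) against 33.8% of barcodes without Cdh5 or Pecam1. The source of its UMIs was not tested. The clock median was 0.32, immediate early 0.26, heat shock 0.12, hypoxia and glycolysis -0.11, cell death 0.40 and cell cycle 0.50, the last against 2.28 in all members. Other genes with the lowest ratios were Vwa3a, Srarp, Slc26a10, Pdgfd, a growth factor of the PDGF family, Myct1 and Copz2, at -6.06, -3.81, -3.92, -3.20, -2.83 and -2.91.

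Single cells were compared after thinning each endothelial-dominant cell to 1000 UMIs, which left 2333, 1233, 1422 and 333 cells and dropped 270, 56, 113 and 40 shallower ones. The median cell held 55, 45, 55 and 33 UMIs of the 28 capillary identity genes. Its interferon response UMIs were 6, 6, 14 and 12, and the 10th percentile of CLP cells, at 7, was above the median of sham cells. Glucocorticoid-responsive UMIs were 5, 4, 9 and 13, and metal response UMIs 4, 4, 4.5 and 18, with the middle 50% of stimulated cells between 12 and 28. Acute phase UMIs were 0, 0, 4 and 8. Most cells of the CLP library thus held more interferon response UMIs than the median sham cell. Metal response counts in stimulated cells reached a 90th percentile of 39 and a highest value of 121. These counts add the UMIs of all genes of a list, so abundant genes weigh most in them. From CLP to stimulated cells the glucocorticoid median went from 9 to 13, while 16 of 27 measured genes of that list were lower. The interferon median went from 14 to 12, while 42 of 48 genes were lower.

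**Figure D5:**
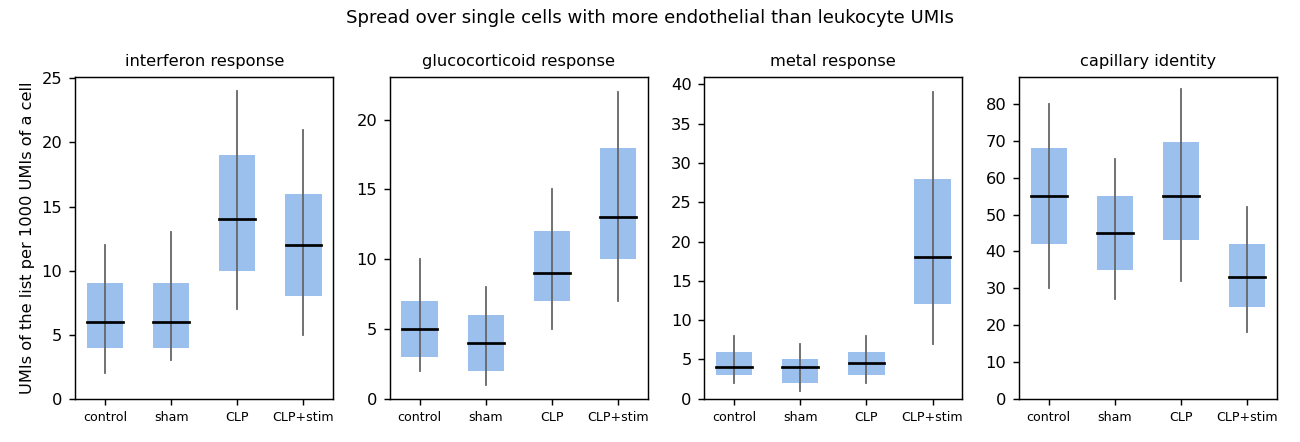
UMIs of 4 gene lists per 1000 UMIs of an endothelial-dominant cell in each library, with the median (black line), the middle 50% of cells (box) and the 10th to 90th percentile (line). The interferon median is 14 in CLP against 6 in sham, and the metal response median 18 with stimulation against 4.5 in CLP.

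Arterial endothelial cells of the same libraries, with at least 2 of the arterial genes, were 435, 219, 382 and 50 barcodes, of which 4, 1, 4 and 3 held as many or more leukocyte UMIs. All these arterial barcodes were kept, unlike in endothelial-dominant capillary cells. Both types share the libraries, and no difference between them was tested. For CLP over sham their medians were 0.86 for interferon response genes (48 of 48 higher), 1.32 for glucocorticoid-responsive genes and -0.46 for VEGF, angiopoietin and apelin genes, beside 0.89, 1.31 and -0.36 in capillary cells. Lpl had a ratio of 3.43 in arterial and 2.94 in capillary cells, Vcam1 3.19 and 3.34, and Aplnr -2.20 and -3.20. For CLP with stimulation over CLP the arterial medians were -1.95 for the capillary identity list, -1.20 for caveolae and -1.01 for interferon response, where endothelial-dominant capillary cells had -1.72, -0.17 and -0.83. The summed level of the caveolae list differed less between the types. It was 4877 CPM in CLP and 1506 CPM with stimulation in arterial cells, and 4753 and 1881 CPM in endothelial-dominant capillary cells. Mt1 had 3.98 in arterial and 4.62 in capillary cells, Inhbb 5.79 and 5.99, and Cav1 -3.07 and -1.9996. The 50 stimulated arterial cells held 448745 UMIs, which limits these values.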

How the data were processed

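UMI counts per gene and barcode were deposited by the authors, per the file headers with Cell Ranger in its version 5.0.0, from Chromium 3' v3 libraries. STAR and mm10 are named in the submitters' processing notes. Barcodes were filtered as the report states. A doublet score (scanpy 1.11.5, highest 0.8% per 1000 barcodes) served as an alternative only, and doublets were otherwise kept. Counts were summed over the cells of each library and scaled to CPM. Poisson intervals are exact, a prior count of 0.5 entered each log2 ratio, ratio intervals are exact conditional binomial ones, and shares used Clopper-Pearson intervals. A gene was measured with at least 20 counts over both libraries, and called past 2-fold at a log2 ratio of 1 or more in size. Scripts used Python 3.11.15, numpy 2.4.6, scipy 1.17.1 and pandas 2.3.3, and edgeR 4.0.16 for TMM factors. They were tested on simulated data. Coordinates come from GENCODE vM21 on GRCm38, upstream sequences from RefSeq.

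The members and gene lists were chosen with earlier results of these data known. Named genes were the 10 highest and 10 lowest ratios in each CLP comparison and the 5 highest and 5 lowest for sham, where the higher library had 50 CPM and 20 counts or more, and the 3 highest and lowest of each list, of which not all are printed. Passed over were mitochondrial, ribosomal, haemoglobin, immunoglobulin and Y-linked genes, Xist, Tsix, unnamed models and genes of the rule. So were markers of other cells, and genes over 3 times as high in barcodes with no Cdh5 or Pecam1. The comparison of stimulated CLP with CLP shares the CLP library with that of CLP with sham, which shares sham with the first. Alternatives were other gates, denominators, filters and scalings. Protein sequences were not used here.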

Additional observations from a re-analysis of the deposited data

Results flagged for a closer look

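In 5 cases a capillary and an arterial log2 ratio of the same comparison lay past 1 in opposite directions, and these differences between the types were not tested. Capillary values are those of endothelial-dominant cells, while arterial values are those of all arterial barcodes, with no filter on leukocyte UMIs. The part of this unlike filter was not tested. Each type gives a single value per library. Lcn2, the siderophore-binding lipocalin, was at 1.24 for sham over control in capillary cells and -1.52 in arterial cells, at 3.74 and 8.93 CPM in the former. Serpina3n, an acute phase protease inhibitor, was at 1.02 for CLP with stimulation over CLP in capillary cells and -1.35 in arterial cells, and its capillary levels were 47.6 and 96.2 CPM. Ccl9, a chemokine of myeloid cells, was at -1.44 for the same comparison in capillary cells, 1.60 in arterial cells and 2.21 when all capillary members were counted. The histone gene Hist1h2ap was at 1.07 for CLP over sham in capillary cells and -1.21 in arterial cells, and at -2.22 and 4.03 for CLP with stimulation over CLP. When all capillary members were counted, Lcn2 was at 2.45, Serpina3n at -0.05 and Hist1h2ap at -0.91 and 1.49 for the same comparisons. Counted so, without the filter in either type, Ccl9, Hist1h2ap and Serpina3n had the sign of their arterial ratios, Serpina3n at only -0.05, and Lcn2 did not.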

How the results depend on the processing

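Of 24 alternative share ratios, 16 lay within the interval of the ratio as reported. The share ratio of sham over control, -0.19, was -0.076 among barcodes with a Cdh5 or Pecam1 UMI. The ratio of CLP over sham, 0.36, reversed to -0.035 on that denominator, and was 0.47 with a gate without Kdr and 0.52 with the gate applied after thinning to 1500 UMIs. The ratio of CLP with stimulation over CLP, -1.57, was -0.36, -2.09 in endothelial-dominant cells (added after the data were seen), -2.08 without cells that held a leukocyte, fibroblast or pericyte UMI, and -1.92 after thinning.

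Counts past 2-fold depended on the filter and on the cells. For sham over control the 412 higher genes were 140 in endothelial-dominant cells, 140 without cells holding other types' UMIs, 154 after thinning, 126 at 100 or more counts, 2260 at 1 or more and 97 with 5 CPM added, and the 133 lower genes were 26, 1759 and 11 under the last 3 and 215 as a mean over cells. For CLP over sham the 656 higher were 381, 2461 and 332 under those 3 filters, and the 935 lower were 404, 2731 and 262, and 611 after thinning. For CLP with stimulation over CLP the 1931 higher were 1202, 3552 and 1161, and 1046 in endothelial-dominant cells, 1086 without other types' UMIs and 929 after thinning, and the 2657 lower were 1641, 4251, 1407 and 1534. TMM factors, which shift the ratios by -0.05, 0.15 and 0.08, and centring on the median left each count within 1.5 times, and turned the balance for CLP over sham to 822 and 827 higher against 689 and 683 lower.

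Of 858 alternative list medians, 800 lay within 0.5 of the median as reported. Of 53 that lay further off, 12 were of CLP with stimulation over CLP without other types' UMIs, 11 in endothelial-dominant cells and 10 after thinning. For sham over control the cell cycle median became -0.027 in endothelial-dominant cells and the MHC class II median -0.44 without other types' UMIs. For CLP with stimulation over CLP the junction median became 0.066, 0.084 and 0.093 over all list members in endothelial-dominant cells, without other types' UMIs and after thinning. In the same order Esam was 0.12, 0.097 and 0.087, Hist1h2ap -2.22, -1.83 and -2.37, Pycard -0.43, -0.33 and -0.25, and Stmn1 -1.98, -1.71 and -2.32, and -0.51 as a mean over cells. Esam and Cldn5, both in the junction list, helped choose endothelial-dominant cells. Without such genes the junction median of this comparison was -0.11 there. C1s1 was 0.13 without other types' UMIs, C4b -0.13 after thinning and -0.072 as a mean over cells, Ccne1 -0.67 as a mean over cells and Cebpd 0.044 after thinning. For sham over control Birc5 was -0.46 in endothelial-dominant cells and -0.33 without other types' UMIs, Pclaf -1.31 in the former, and H2-DMb1, Hist1h2ap and Plaur -0.47, -0.038 and -0.26 in the latter, and Lcn2 -0.79 after thinning. The cause was not tested.

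No paired analysis was possible because each group has 1 library, and no library was left out for the same reason. Depth limits genes at a few CPM, such as the selectins, most in the 373 endothelial-dominant cells with stimulation.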
